A study of Mus musculus with 6 samples.

Results

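The Hedgehog pathway was read out through 9 genes. These were the ligands *Shh* and *Dhh*, the receptor *Ptch1*, the transducer *Smo*, the transcription factors *Gli1*, *Gli2* and *Gli3*, the decoy receptor *Hhip* and the inhibitor *Sufu*. They were taken by symbol from the 32493 genes of the count table, and each symbol matched 1 Ensembl gene. The cells were neural stem cells (NSCs) of E14.5 mouse embryos, taken from the lateral ventricles and cultured for 3 generations with EGF and bFGF before bulk RNA sequencing. The cko embryos were homozygous for miR-151 alleles flanked by loxP sites within the *Ptk2* gene and carried Emx1-IRES-Cre, which is active in the dorsal telencephalon. The ctrl embryos had the same floxed alleles and no Cre (the sample labels call them wt), and all mice were on the C57BL/6J background. The paper calls the cko and ctrl animals littermates. The sample labels give no sex or litter, and do not say whether libraries came from separate embryos. The p-values below therefore measure the spread between these libraries, part of which may be technical.

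Hedgehog ligands bind PTCH1, which otherwise keeps SMO silent. Active SMO releases the GLI proteins from SUFU, and the signal passes through the primary cilium. GLI2 is the main activator, GLI3 acts largely as a repressor when no ligand is present, and *Gli1*, *Ptch1* and *Hhip* are themselves switched on by the pathway. In the embryonic forebrain, SHH from ventral sources specifies ventral progenitors and GLI3 protects dorsal identity, and the pathway also drives progenitor division and the making of oligodendrocytes.

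The question was which of these genes differed between NSCs with and without intact miR-151 alleles. The comparison was made between 3 cko and 2 ctrl libraries, with 17883796 to 23335736 counts each. The sixth column, ctrl replicate 2, was the average of the columns of ctrl replicates 1 and 3 (rounded up) in 32493 of 32493 genes, and was counted in no n. The ctrl libraries stood further apart than the cko libraries did. They differed by more than 2-fold in 682 of 16710 tested genes, against 76 to 165 genes between cko libraries. The deleted miRNA was not analysed here, and its host gene *Ptk2* does not check the deletion. *Ptk2* was at 133 and 150 CPM in ctrl and at 138 to 142 CPM in cko libraries. The defining NSC gene *Sox2* was at 556 to 626 CPM (counts relative to the library's total, which was scaled by the TMM method of edgeR) in the 5 libraries. *Nes* was at 471 and 537 CPM in ctrl and at 874, 1068 and 1034 CPM in cko libraries. The dorsal gene *Emx1*, whose locus drives the Cre, had 10 and 9 counts in ctrl and 1, 4 and 6 counts in cko libraries. *Cx3cr1* of microglia and *Cdh5* of endothelium had 0 counts in all 5 libraries. A count of 0 allows a level of up to 0.129 to 0.168 CPM, the value of 3 counts, and this limit covers counting error only.

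In cko NSCs the activator gene *Gli2* and the repressor gene *Gli3* fell, while *Ptch1*, *Smo* and *Sufu* stayed the most abundant genes of the group per length. *Gli2* fell from 20.5 ± 1.76 (SD, n = 2) to 9.76 ± 2.31 (SD, n = 3) CPM and *Gli3* from 15.9 ± 3.80 (SD, n = 2) to 7.78 ± 1.997 (SD, n = 3) CPM. Of the 9 genes, 8 passed the filter on low counts and were tested, and *Gli1* did not. The ligand gene *Dhh* passed only because its ctrl libraries were high, which fixed its direction, so counts of lower genes are given over the other 7. By edgeR's quasi-likelihood test, with p-values adjusted over all tested genes (Benjamini-Hochberg) and a threshold of 0.05, 2 of these 7 were lower in cko NSCs, where 8.57% of all tested genes were lower. None of the 8 was higher at this threshold, against 7.86% of all tested genes. At an unadjusted p under 0.05, 2 of the 8 were higher, *Ptch1* and *Hhip*, and 3 of the 7 were lower, *Smo*, *Gli2* and *Gli3*, where 15.9% of all tested genes were higher and 16.7% lower. DESeq2, at its own adjusted p, called the same genes in each direction, where it called 10% of all genes higher and 10.8% lower. The study's own threshold was a log2 fold change beyond 0.9 with an unadjusted p under 0.01. At that threshold *Gli2* and *Gli3* were lower (4.17% of all tested genes), and none was higher in edgeR or DESeq2 (2.39% of all tested genes in edgeR). The median log2 fold change was 0.081 over the 7 genes and -0.10 with *Dhh*, and that of all tested genes was -0.0026.

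**Figure D1:**
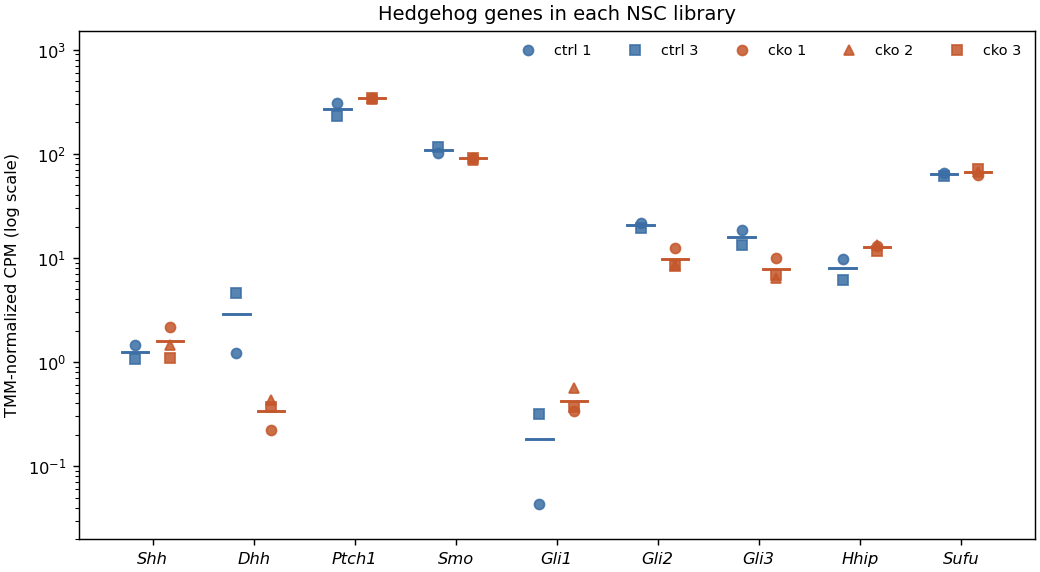
TMM-normalized CPM, on a log axis, of 9 Hedgehog genes in 2 ctrl (blue) and 3 cko (orange) NSC libraries; each symbol is a library and each line a group mean. The ctrl and cko symbols of *Gli2*, *Gli3* and *Dhh* do not overlap and the cko symbols are lower, *Ptch1* lies between 232 and 347 CPM, and *Gli1* lies under 0.56 CPM in all 5 libraries.

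Counts per merged exon length and library size (RPKM) were used to order the genes within a library. *Ptch1* was the most abundant in 4 of 5 libraries, at 21.5 RPKM in ctrl library 1 and 23.8 to 24.4 RPKM in cko libraries. In ctrl library 3, *Smo* came before it, with 20.8 against 16.4 RPKM. *Sufu* came next after these 2 in every library, at 7.98 to 9.36 RPKM. The RPKM of *Ptch1* lay above that of 79.7% to 87.5% of tested genes. *Gli2* and *Gli3* followed in ctrl libraries, at 2.80 to 3.17 and 1.38 to 1.94 RPKM. *Hhip*, at 0.676 to 1.08 RPKM in ctrl, lay above *Gli3* in all 3 cko libraries and above *Gli2* in 2 of them. *Shh*, *Dhh* and *Gli1* were the lowest 3 genes in each library except ctrl library 3, where *Dhh* lay above *Hhip*. The merged exon length counts every annotated isoform, so a gene with a long rare exon has a lower RPKM.

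The GLI genes encode zinc finger proteins that read the signal in the nucleus. *Gli2* (ENSMUSG00000048402, chromosome 1, 118834132 to 119053619, minus strand, GRCm38) reached 21.8 and 19.3 CPM in ctrl and 12.4, 8.49 and 8.36 CPM in cko libraries. Every cko library lay below both ctrl libraries. The log2 fold change was -1.08 (standard error 0.19, 95% interval -1.53 to -0.62, adjusted p = 0.0120 in edgeR), a ratio of 0.474. This difference was larger than the spread within either group. Without cko library 2 or cko library 3, its adjusted p was 0.0658 and 0.0644, at log2 fold changes of -0.99 in both cases.

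*Gli3* (ENSMUSG00000021318, chromosome 13, 15463235 to 15730026, plus strand, GRCm38) was measured at 18.6 and 13.2 CPM in ctrl and at 10.1, 6.39 and 6.89 CPM in cko libraries. The groups did not overlap, and cko library 1 was again the highest of the cko libraries. The log2 fold change was -1.04 (standard error 0.24, 95% interval -1.60 to -0.48, adjusted p = 0.0269 in edgeR), a ratio of 0.486. Its adjusted p was 0.0524 without ctrl library 1, 0.108 without cko library 2 and 0.113 without cko library 3, with log2 fold changes of -0.79, -0.92 and -0.97. An opposite-strand transcript, *Gm6556*, shares 188 exon bases with *Gli3* and had 2 to 21 counts, and counting by strand was not stated.

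The third factor, *Gli1* (ENSMUSG00000025407), is a target as well as an effector of the pathway. It had 1 and 6 counts in the ctrl and 6, 13 and 8 counts in the cko libraries. The counts of ctrl library 3 and cko library 1 were equal, and their levels were 0.320 and 0.336 CPM. Only 1 of 5 libraries reached the 0.460 CPM that the filter asks for, so no fold change is given.

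Added per length, the 3 GLI genes came to 5.12 and 4.25 RPKM in ctrl and to 2.93, 2.01 and 2.01 RPKM in cko libraries. The means were 4.68 ± 0.614 (SD, n = 2) and 2.32 ± 0.528 (SD, n = 3) RPKM, a ratio of 0.495, given as a description with no test of its own. Within this sum, *Gli2* held 61.9% and 66.0% in ctrl and 60.6% to 61.8% in cko libraries. *Gli3* held 37.9% and 32.5% in ctrl and 33.1% to 35.9% in cko libraries. The ratio of *Gli2* to *Gli3* was 1.83 ± 0.283 (SD, n = 2) in ctrl and 1.76 ± 0.0862 (SD, n = 3) in cko NSCs, and its ranges overlapped.

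**Figure D2:**
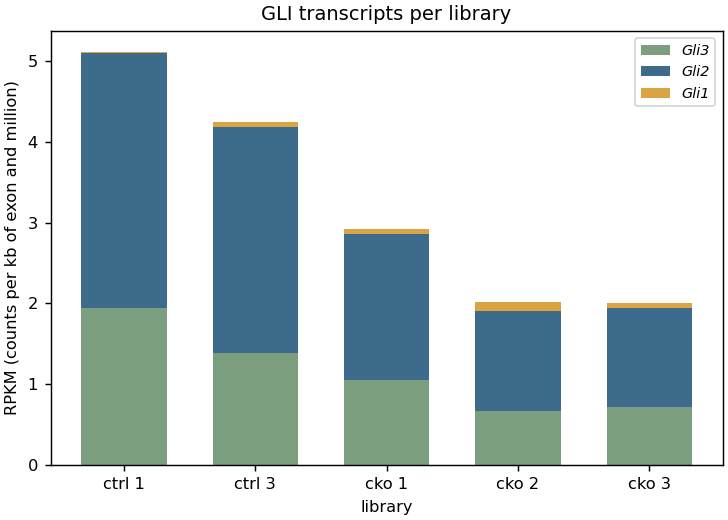
Stacked RPKM of *Gli3*, *Gli2* and *Gli1* in 2 ctrl and 3 cko NSC libraries. The sums are 5.12 and 4.25 RPKM in ctrl and 2.01 to 2.93 RPKM in cko libraries, and *Gli2* makes up 60.6% to 66.0% of each bar.

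Since *Gli2* and *Gli3* fell together, the stretches around their starts are shown, from 250 bases before to 50 bases after the start of the RefSeq transcript (GRCm38.p6). They lie at chr1:119053570-119053869 on the minus strand and at chr13:15463473-15463772 on the plus strand. Capitals mark CCACCC or its reverse complement GGGTGG, the core of the GLI binding consensus GACCACCCA.

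Gli2: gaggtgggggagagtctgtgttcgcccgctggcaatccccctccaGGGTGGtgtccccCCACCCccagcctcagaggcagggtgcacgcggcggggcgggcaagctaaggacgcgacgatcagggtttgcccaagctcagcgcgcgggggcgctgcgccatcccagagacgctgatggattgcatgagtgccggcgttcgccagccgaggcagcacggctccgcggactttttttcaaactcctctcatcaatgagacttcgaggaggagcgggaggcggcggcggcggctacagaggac

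Gli3: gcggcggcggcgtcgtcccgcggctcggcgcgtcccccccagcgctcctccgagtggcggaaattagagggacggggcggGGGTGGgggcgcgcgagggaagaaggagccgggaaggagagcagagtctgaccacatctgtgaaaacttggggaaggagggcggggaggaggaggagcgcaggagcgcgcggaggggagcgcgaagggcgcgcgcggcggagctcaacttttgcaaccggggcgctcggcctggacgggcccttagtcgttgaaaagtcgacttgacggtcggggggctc

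The core began 205 and 192 bases before the start in *Gli2* and 170 bases before it in *Gli3*. Promoters of 7 of the 9 genes were at hand, all but *Shh* and *Gli1*, and 5 of the 7 held the core on either strand, among them *Dhh*, *Smo* and *Hhip*. The core was present in 31.5% of all 32851 promoters of the same length, which were not matched for GC content. The 7 windows had 56.3% to 76.3% G and C, where the median of all promoters was 52.7%, and the core itself is rich in them. The whole consensus, in which the core lies, was in 0 of the 7 and in 0.253% of all promoters on either strand. These matches describe the letters of each window only. The *Gli2* and *Gli3* windows held 28 and 39 CpG dinucleotides and the *Ptch1* window 47, where the median of all promoters was 7.

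The ligands start the signal. DHH is best known from Schwann cells and the testis. *Dhh* (ENSMUSG00000023000, chromosome 15, 98891152 to 98898540, minus strand, GRCm38) had 28 and 86 counts in the ctrl and 4, 10 and 8 counts in the cko libraries, or 1.22 and 4.59 against 0.224, 0.429 and 0.368 CPM. The groups did not overlap, but ctrl library 3 lay far above ctrl library 1. Its log2 fold change was -3.03 (95% interval -4.48 to -1.58, adjusted p = 0.0187 in edgeR). *Dhh* passed the filter on low counts through its ctrl libraries alone, so a tested *Dhh* had to be lower in cko NSCs. The log2 fold change was -1.80 without ctrl library 3 (adjusted p = 0.0600) and -3.71 without ctrl library 1 (adjusted p = 0.000532), and leaving out any 1 cko library gave an adjusted p of 0.0693 to 0.0835. *Dhh* also shares 546 exon bases with *Rhebl1* on the same strand, which had 112 and 108 counts in ctrl and 70, 89 and 91 in cko libraries.

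*Shh* (ENSMUSG00000002633), the ligand of the ventral forebrain, had 33 and 20 counts in ctrl and 39, 34 and 24 counts in cko libraries. The groups overlapped, at 1.07 to 1.44 against 1.10 to 2.18 CPM. The log2 fold change of 0.31 had a 95% interval of -0.59 to 1.22 (adjusted p = 0.621 in edgeR), which leaves room for a change in either direction. *Ihh*, the ligand best known from cartilage, had 5 to 12 counts in each of the 5 libraries.

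PTCH1 is the receptor, and its transcript rises when the pathway is active. *Ptch1* (ENSMUSG00000021466, chromosome 13, 63508328 to 63573598, minus strand, GRCm38) was measured at 304 and 232 CPM in ctrl and at 347, 338 and 346 CPM in cko libraries. Each cko library lay above both ctrl libraries, and the cko values were close together. The log2 fold change of 0.36 (95% interval 0.083 to 0.63) did not pass the correction over all genes (adjusted p = 0.0788 in edgeR). It was 0.56 without ctrl library 1 (adjusted p = 0.00130) and 0.18 without ctrl library 3 (adjusted p = 0.121).

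HHIP, a membrane protein that captures the ligands, is induced by the signal it limits. *Hhip* (ENSMUSG00000064325) was measured at 9.78 and 6.14 CPM in ctrl and at 13.04, 13.4 and 11.6 CPM in cko libraries. The groups did not overlap, with cko higher. Its log2 fold change was 0.66 (standard error 0.21, 95% interval 0.17 to 1.16, adjusted p = 0.0746 in edgeR). It was 1.04 without ctrl library 1 (adjusted p = 0.00463) and 0.38 without ctrl library 3 (adjusted p = 0.141).

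SMO is the membrane protein that PTCH1 holds back. *Smo* (ENSMUSG00000001761) was measured at 102 and 117 CPM in ctrl and at 91.7, 87.5 and 90.9 CPM in cko libraries. All 3 cko values were below both ctrl values, by a small margin. The log2 fold change was -0.28 (standard error 0.082, 95% interval -0.48 to -0.091, adjusted p = 0.0561 in edgeR), just short of the threshold. The adjusted p was 0.0420 in DESeq2 and 0.196 in edgeR with a replicate block. Without cko library 1, 2 or 3 it was 0.106, 0.195 and 0.166 in edgeR. The log2 fold change was -0.39 without ctrl library 1 and -0.18 without ctrl library 3. SUFU binds GLI proteins in the cytoplasm. *Sufu* (ENSMUSG00000025231) was measured at 65.8 and 61.4 CPM in ctrl and at 62.9, 66.9 and 72.0 CPM in cko libraries. These ranges overlapped, and the log2 fold change of 0.081 had a 95% interval of -0.12 to 0.28 (adjusted p = 0.568 in edgeR).

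**Figure D3:**
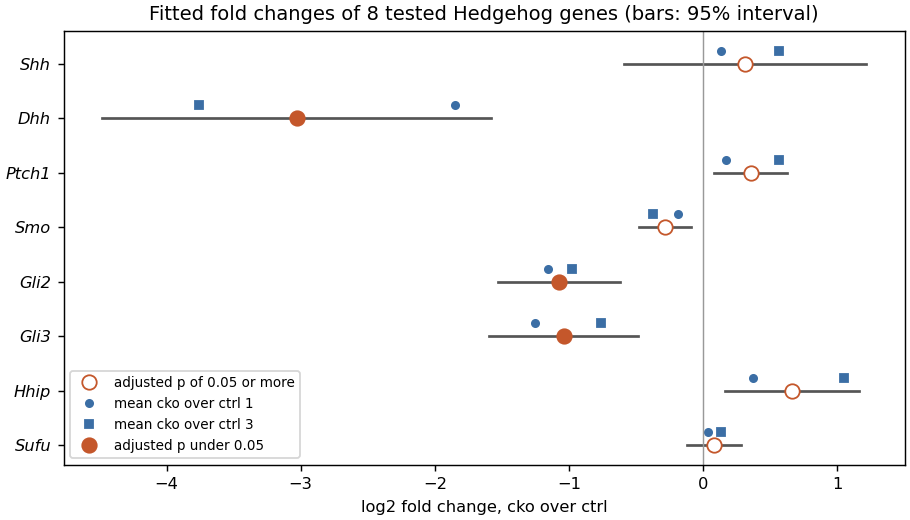
Fitted log2 fold changes, cko over ctrl, of the 8 tested Hedgehog genes (circles, with 95% intervals as bars; filled where the adjusted p was under 0.05) and the log2 ratio of the mean cko CPM to each ctrl library alone (small blue symbols). The small symbols keep the same sign for each of the 8 genes, and those of *Dhh* lie furthest apart. The side on which *Dhh* lies was fixed by the filter on low counts.

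Of the 7 tested genes without *Dhh*, 3 had every cko library below both ctrl libraries (*Smo*, *Gli2* and *Gli3*), which held for 24.3% of all tested genes. In *Ptch1* and *Hhip* every cko library was above both, which held for 25.4% of all tested genes. Levels were also set against each other within each library. Per length, *Ptch1* was 6.78 and 5.83 times the level of *Gli2* in ctrl and 13.5, 19.3 and 20.0 times in cko libraries. Against *Gli3* it was 11.1 and 11.9 times in ctrl and 23.3, 35.7 and 33.9 times in cko libraries. The ratio of *Ptch1* to *Smo* was 1.18 and 0.787 in ctrl and 1.499 to 1.53 in cko libraries. *Sufu* was 1.67 and 1.88 times the GLI sum in ctrl and 2.79, 4.32 and 4.66 times in cko libraries. None of these 4 ratios overlapped between the groups, and none was tested. For the ratios of *Ptch1* this follows from the levels above, and the ratio of *Sufu* follows the lower GLI sum. They therefore restate those differences and add no separate result.

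Genes with a profile over the 5 libraries much like that of *Gli2* were common. The highest Pearson's r belonged to *Arhgap5* (0.9996) and *Trim9* (0.9992), and 630 tested genes had an r over 0.95. For *Gli3* they were *Ctsf* (0.9999) and *Slc4a11* (0.9988), and 483 genes had an r over 0.95. Between *Gli2* and *Gli3* it was 0.981. With 5 libraries in 2 genotypes, these values describe the profiles and carry no p.

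The rest of the pathway was described by 46 other genes in 5 lists by role. Of the 41 that could be tested, edgeR called 5 lower and 1 higher in cko NSCs, against 8.57% and 7.86% of all tested genes. Their median log2 fold change was -0.010, beside -0.0026 for all tested genes. At an unadjusted p under 0.05, 9 were lower and 3 higher, where 16.7% and 15.9% of all tested genes were.

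Of 6 genes for making and releasing ligands, all were tested and none passed in either direction in edgeR or DESeq2. At an unadjusted p under 0.05 only *Scube2*, which helps release lipid-bound ligand, stood out (log2 fold change -1.09, adjusted p = 0.135). *Disp1*, the exporter of ligand and the gene with the most counts on the list, was at 20.4 ± 1.30 (SD, n = 2) CPM in ctrl and 22.4 ± 1.997 (SD, n = 3) CPM in cko NSCs.

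Coreceptors help PTCH1 to bind ligand. Of 5 listed receptors and coreceptors, edgeR tested 4 and called 1 lower and none higher. *Lrp2*, an endocytic receptor that handles SHH in the forebrain, was at 7.91 and 14.3 CPM in ctrl and at 6.10, 4.37 and 4.83 CPM in cko libraries. Its log2 fold change was -1.12 (standard error 0.28, adjusted p = 0.0342 in edgeR), and -0.64 without ctrl library 3 (adjusted p = 0.0863). Leaving out cko library 1, 2 or 3 also took its adjusted p to 0.0633, 0.135 and 0.130. *Cdon*, a coreceptor gene and the one with the highest mean CPM on the list (not corrected for length), was at 56.0 and 51.2 CPM in ctrl and at 58.2, 92.0 and 95.7 CPM in cko libraries, with cko library 1 near the ctrl values. Its log2 fold change, 0.61, had an adjusted p of 0.0802 in edgeR, and DESeq2 called it. For the coreceptor genes *Gas1* and *Boc* the log2 fold changes were -0.18 and -0.37 (adjusted p = 0.214 and 0.162).

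Of 18 genes that relay the signal or control GLI proteins, edgeR called 2 lower and none higher. At an unadjusted p under 0.05, 4 were lower and 1, *Gsk3b*, was higher, and DESeq2 called 3 lower and none higher. *Tulp3*, which carries receptors such as GPR161 into the cilium, was at 64.9 and 75.8 CPM in ctrl and at 42.0, 44.1 and 36.9 CPM in cko libraries. The groups were well separated, at -0.78 on the log2 scale (standard error 0.11, adjusted p = 0.00501 by edgeR), and the call held with each library left out in turn. *Evc2*, part of the complex at the base of the cilium through which SMO acts, fell from 39.0 ± 4.72 (SD, n = 2) to 26.0 ± 2.08 (SD, n = 3) CPM, or -0.59 on the log2 scale (adjusted p = 0.0163 by edgeR). Without cko library 2 or cko library 3 its adjusted p was 0.0837. Its partner *Evc* was at 46.8 ± 0.794 (SD, n = 2) and 49.1 ± 1.38 (SD, n = 3) CPM. The kinesin gene *Kif7* and *Gpr161*, whose receptor keeps GLI activity down, had log2 fold changes of -0.034 and 0.20 (adjusted p = 0.858 and 0.172 in edgeR). The kinase gene *Csnk1a1*, which had the highest mean CPM of the list without correction for length, had a value of -0.10 on that scale (adjusted p = 0.391).

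None of 6 genes of cilium transport was called in either direction by edgeR or DESeq2, and none had an unadjusted p under 0.05 in edgeR. Their log2 fold changes ran from -0.071 for *Kif3a* to 0.30 for *Rpgrip1l*.

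Among 12 genes known as targets of the pathway, 7 could be tested, and edgeR called 2 lower and 1 higher. Several of them answer to other signals as well. *Nkx2-2*, a factor of ventral progenitors and of the oligodendrocyte lineage, was at 43.3 and 49.1 CPM in ctrl and at 34.3, 29.2 and 27.8 CPM in cko libraries (log2 fold change -0.60, adjusted p = 0.0155 by edgeR). Its adjusted p was 0.0819 without cko library 2 and 0.0771 without cko library 3. *Nkx6-2*, a factor of the same 2 kinds of cell, was at 3.23 and 5.44 CPM in ctrl and at 1.12, 1.80 and 2.02 CPM in cko libraries. Its log2 fold change was -1.38 (adjusted p = 0.0345 in edgeR). With ctrl library 3 left out, the log2 fold change was -0.95 and the adjusted p 0.10, and with cko library 1, 2 or 3 left out it was 0.0863, 0.113 and 0.0886. *Olig2*, which marks oligodendrocyte precursors and many cultured NSCs, was at 539 and 649 CPM in ctrl and at 741, 819 and 761 CPM in cko libraries. All 3 cko libraries were higher, by 0.38 on the log2 scale (adjusted p = 0.0444 by edgeR). That p was 0.0503 with median-of-ratios size factors, 0.126 with a replicate block, 0.0519 with at least 10 counts in every library, and 0.0649 to 0.199 without ctrl library 1 or any 1 cko library. *Ccnd2*, a cyclin gene, was at 516 and 882 CPM in the 2 ctrl libraries and at 525 to 559 CPM in cko libraries. The ventral factor *Nkx2-1* had 5 and 3 counts in ctrl and 0 in each cko library and was not tested. *Foxa2*, *Foxf1* and *Nkx6-1* had at most 5 counts in any library.

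**Figure D4:**
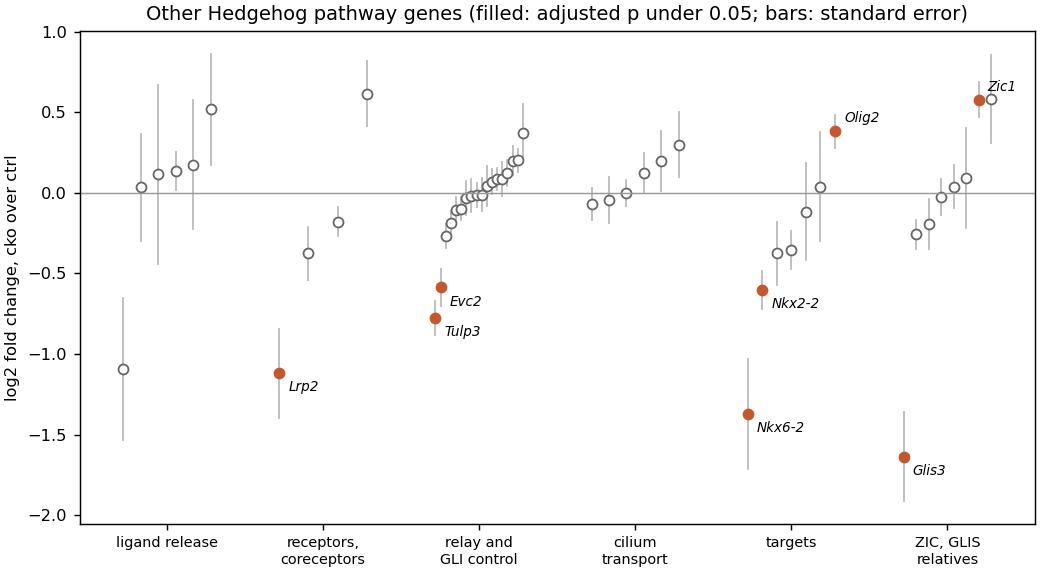
Log2 fold changes, cko over ctrl, of the tested genes of 6 lists (circles; bars are the standard error; filled and named where the adjusted p was under 0.05 in edgeR). Of 41 tested genes in the first 5 lists, 5 filled circles lie below 0 and 1 above, and the ZIC and GLIS list has 1 on each side.

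The ZIC and GLIS factors share the zinc finger fold of the GLI proteins. Of 8 such genes, all were tested, and edgeR called 1 higher and 1 lower. *Zic1*, a factor of dorsal neural progenitors, rose from 103 and 80.6 CPM in ctrl to 140, 136 and 136 CPM in cko libraries (log2 fold change 0.58, adjusted p = 0.0141 in edgeR). *Glis3* fell from 29.9 and 16.0 CPM to 7.39, 6.002 and 8.78 CPM, or -1.64 on the log2 scale (adjusted p = 0.00960 by edgeR). Without cko library 2 the adjusted p was 0.0698 for *Zic1* and 0.0529 for *Glis3*, and without cko library 3 it was 0.0690 for *Zic1*. *Zic2* was fitted at -0.024 on the log2 scale (adjusted p = 0.908).

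Some markers of other cell types also differed between the groups. Over all tested genes, edgeR called 8.57% lower and 7.86% higher. The astrocyte marker *Gfap* overlapped between the groups, at 1008 and 178 CPM in ctrl and 298, 86.7 and 122 CPM in cko libraries. Of 6 astrocyte markers all were fitted below 0 and 3 were called lower, and their summed level was 2927 to 3679 CPM in ctrl and 1516 to 2136 CPM in cko libraries, with no marker at 0. Of 9 markers of the oligodendrocyte lineage, 4 were called lower, among them *Mbp*, *Myrf* and *Sox10*, and 2 higher (*Olig1* and *Olig2*). Their summed level was 2756 to 3379 CPM in ctrl and 3226 to 3511 CPM in cko libraries, and none was at 0. Of 7 neuron markers 6 were tested. *Dcx* was called lower (log2 fold change -1.51, adjusted p = 0.00486 by edgeR) and *Syt1* higher (1.57, adjusted p = 0.00257), and the list summed to 1102 to 1227 CPM in ctrl and 1196 to 1225 CPM in cko libraries. *Stmn2* of that list had 4 and 48 counts in ctrl and 1 to 4 counts in cko libraries and was not tested. Beside *Dhh*, the 5 Schwann cell markers summed to 11.1 to 16.1 CPM in ctrl and 7.11 to 9.05 CPM in cko libraries. Of these, 4 were tested and 1, *Egr2*, was called lower. Of 8 NSC markers, 3 were called higher, among them *Nes* (log2 fold change 0.98, adjusted p = 0.00287 by edgeR). None was called lower, with none lower at an unadjusted p under 0.05 or in DESeq2. Markers of endothelium, pericytes, meningeal fibroblasts and microglia summed to at most 6.71 CPM per list and library. The part of these markers in the fall of *Gli2*, *Gli3* and *Dhh* was not tested, and in bulk RNA fewer cells of a type and less RNA per cell cannot be told apart. Of 6 dorsal markers 4 were tested, and 1 (*Lhx2*, log2 fold change 0.65, adjusted p = 0.00524 by edgeR) was called higher. Of 6 ventral markers 4 were tested and none was called in edgeR or DESeq2, and at an unadjusted p under 0.05 only *Dlx2* was lower.

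**Figure D5:**
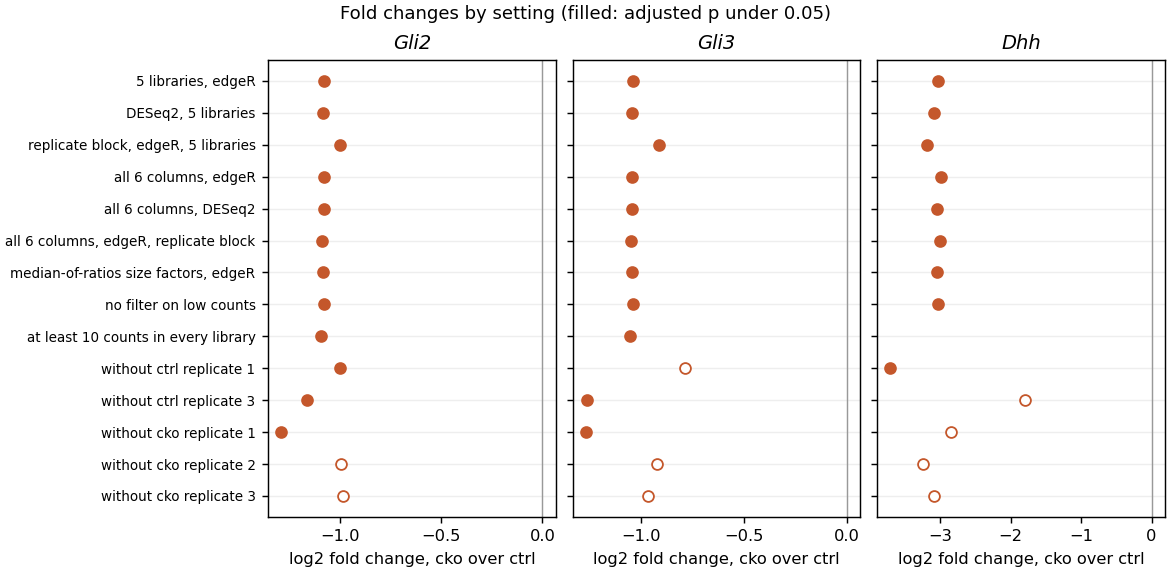
Log2 fold changes, cko over ctrl, of *Gli2*, *Gli3* and *Dhh* under each setting (rows); filled circles have an adjusted p under 0.05. All circles lie below 0, those of *Gli2* between -1.29 and -0.99, and the open circles appear where a library is left out.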

How the data were processed

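RNA of 6 NSC samples was sequenced in bulk. The authors filtered reads and aligned them to mm10 with HISAT2, and the submitters' processing notes name GRCm39. The counting tool, the annotation and the use of strand are not given in the sources used here. They deposited raw counts for 32493 Ensembl genes. The ctrl replicate 2 column, deposited as counts, held a rounded mean, and entered alternatives only. Names, positions and exon lengths came from GENCODE M21 (GRCm38), which named 31836 genes.

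The counts of 5 libraries were fitted with edgeR 4.0.16 under R 4.3.3 (filterByExpr, TMM, quasi-likelihood test, Benjamini-Hochberg over 16710 genes). The standard error was the fold change divided by the root of F. Log2 CPM used a pseudocount of 0.5. The steps were tested on simulated data. The 13 alternatives included DESeq2 1.42.0, a replicate block and all 6 columns. Figures used matplotlib 3.10.9.

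The 9 genes and the other lists were chosen with earlier results of these data known. Named were the 9 genes, every listed pathway gene with an adjusted p under 0.05, the gene with the highest mean CPM of each list, and the 2 genes most correlated with each called member that had 10 counts in every library. *Boc*, *Ccnd2*, *Evc*, *Gpr161*, *Kif7*, *Scube2*, *Dcx*, *Gas1*, *Gfap*, *Gsk3b*, *Stmn2*, *Syt1*, *Rpgrip1l*, *Zic2*, *Ihh* and the untested targets were named after their values were seen. The marker *Cldn5* was not used here. Promoters were RefSeq's. Some listed genes are not reported here by name.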

Additional observations from a re-analysis of the deposited data

How the results depend on the processing

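Across 13 alternatives the fitted directions of the 7 tested genes without *Dhh*, and of the 8 called genes of the other lists, were kept. *Gli2* and *Gli3* were called lower in edgeR with the replicate block, with median-of-ratios factors, without a filter and with all 6 columns. DESeq2 called both lower as well. *Dhh* was called lower in the same fits, but its ctrl libraries alone carried it past the filter on low counts, which fixed its direction. *Smo* was also called lower in DESeq2, in the 3 fits of all 6 columns, without a filter and with at least 10 counts in every library. It was not called with the replicate block, with median-of-ratios factors or without any 1 cko library. *Dhh* could not be tested with at least 10 counts in every library. Fits without a ctrl library leave 1 ctrl library, so no count of called genes is given for them. Without cko library 1, 2 of the 7 genes, *Gli2* and *Gli3*, were called lower, where 907 of 16481 tested genes were. Without cko library 2 or cko library 3, 0 of the 7 were called lower, and *Dhh* was not called either. In those 2 settings the calls over all genes also fell, from 1314 higher and 1432 lower to 317 and 416 without cko library 2 and to 336 and 457 without cko library 3. *Ptch1* and *Hhip* were called higher, 2 genes, in DESeq2 with 5 libraries, in the 3 fits of all 6 columns and without a filter. Without any 1 cko library the count was 0. Over all genes, the fits of all 6 columns called 2593 to 2865 of 16322 higher. The fit without a filter called 1838 of 30524 higher, and the edgeR fit of 5 libraries 1314 of 16710. At the study's threshold 0 were higher with any 1 cko library left out. The count of other pathway genes called higher, 1, became 0 with the replicate block, median-of-ratios factors or at least 10 counts in every library. It was 2 in DESeq2 and without a filter. With all 6 columns it was 3 in either tool and 5 with the block. Without a cko library it ran from 0 to 1. With all 6 columns, the count of these genes called lower rose from 5 to 8 in edgeR. It rose to 10 with all 6 columns in DESeq2 or with the block. It was 9 without a filter and ran from 1 to 3 without a cko library. Over all genes, lower calls with all 6 columns numbered 2630 to 2794 of 16322, and 2237 of 30524 without a filter. With 5 libraries in edgeR they numbered 1432 of 16710. The replicate block, in which the difference comes from replicates 1 and 3, changed the call of *Lrp2* (adjusted p = 0.0633 in edgeR) and *Olig2* (0.126) and of no other called gene. The labels do not say what a shared number means, and libraries of the same number correlated at 0.179 and 0.0546 in their deviations across genes. Without a ctrl library, the lone one is assumed to vary like the others. Fits with the averaged column count 2 ctrl libraries as 3. The causes of these differences were not tested.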
